A study of Mus musculus with 6 samples.

Results

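A set of 30 genes of the unfolded protein response and the integrated stress response were followed in mouse bone marrow macrophages on 6 Affymetrix Mouse Genome 430 2.0 arrays. The 30 members were given by name, out of 18193 genes for which the platform annotation offered at least 1 probe set with a single symbol. Each gene was represented by the probe set with the highest mean over the 6 arrays. They comprised 14 chaperones and folding enzymes of the endoplasmic reticulum (ER), 4 genes of ER degradation and import, 5 sensors and first transcription factors, and 7 target genes of ATF4. All 30 had a probe set, and 29 passed the filter on dim probe sets. Chac1 did not.

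The cells were bone marrow macrophages of strain c57BL/6, from mice lacking both TNF receptors (TNFR1-/-R2-/-). They carried a retroviral chimeric receptor, the outer part of mouse TNFR1 joined to the membrane and inner parts of mouse RANK. Wild-type arrays (n = 3) had an unaltered RANK part, whereas on mutant arrays (n = 3) inactivating mutations had been placed in the IVVY motif. Transduced cells of both kinds were kept in 2 ug/ml puromycin during 3 days before receiving M-CSF at 44 ng/ml and TNFα at 10 ng/ml for 24 hours. The RNA of 6 dishes was pooled for each array, and the 3 same-numbered pairs of arrays came from 3 independent assays. Whether the assays used different mice is not stated, so the errors measure only the spread between these preparations. All cultures received ligand, and cells without it were not analysed here. The study asked which genes depend on the IVVY motif.

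Proteins made for secretion or for membranes fold in the ER with the help of chaperones such as BiP. When unfolded proteins accumulate, the sensors IRE1, PERK and ATF6 raise the supply of chaperones and of the machinery that removes misfolded proteins. PERK also phosphorylates the initiation factor eIF2, which slows most translation and favours that of ATF4. Other kinases that sense amino acid shortage, viral RNA or haem shortage act on the same factor, and this shared branch is called the integrated stress response. ATF4 in turn drives genes of amino acid synthesis and, under lasting stress, genes linked to cell death. Osteoclasts, which form from macrophages under RANK signalling, secrete large amounts of acid hydrolases.

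Some promoters of these genes carry short elements of the stress branches. They are shown here because the chaperones and the ATF4 targets are described separately below. RefSeq promoter sequences (build GRCm38.p6, 250 bases before to 50 bases after the start site) were found for 27 of the 30 members. The ER stress element was searched as CCAAT and CCACG with 9 bases between them, on both strands. It occurred in 7 of the 12 chaperone promoters, in none of the other 15 member promoters and in 0.119% of the 32851 promoters of the same length. In the following stretches, all upstream of the start site and written 5′ to 3′ in the direction of the gene, capitals mark the whole element in either orientation.
Hspa5 (chr2:34772000-34772068, plus strand): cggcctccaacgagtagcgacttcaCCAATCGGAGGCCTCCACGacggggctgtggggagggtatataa
Hsp90b1 (chr10:86705508-86705681, minus strand): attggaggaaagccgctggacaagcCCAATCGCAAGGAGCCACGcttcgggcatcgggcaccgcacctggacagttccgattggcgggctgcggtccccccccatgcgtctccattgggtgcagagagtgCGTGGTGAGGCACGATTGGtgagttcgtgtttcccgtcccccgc
Dnajc3 (chr14:118937802-118937870, plus strand): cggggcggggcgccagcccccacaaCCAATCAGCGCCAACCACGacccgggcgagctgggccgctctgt
Pdia6 (chr12:17266466-17266534, plus strand): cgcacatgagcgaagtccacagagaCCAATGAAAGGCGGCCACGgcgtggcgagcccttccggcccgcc
Canx (chr11:50325775-50325843, minus strand): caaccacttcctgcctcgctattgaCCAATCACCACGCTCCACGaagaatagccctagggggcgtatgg
Calr (chr8:84847050-84847118, minus strand): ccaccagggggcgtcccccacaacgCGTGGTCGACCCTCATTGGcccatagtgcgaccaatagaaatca
Creld2 (chr15:88819495-88819563, plus strand): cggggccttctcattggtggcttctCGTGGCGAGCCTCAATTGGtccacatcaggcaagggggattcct

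Some ATF4 targets carried another element. The composite site of C/EBP and ATF factors, searched as TGATGNAA on both strands, occurred in 4 of the 7 ATF4 target promoters (Asns, Atf3, Chac1 and Trib3), in Herpud1 and in 3.97% of all promoters. The Trib3 match began 14 bases after the start site and is not printed. Herpud1 also had the second form of the ER stress element, ATTGG and CCACG with 1 base between them, which 0.0365% of all promoters held. The core of the unfolded protein response element, TGACGTG, was found in Hspa5 alone among the members and in 2.01% of all promoters. No matches overlapped. A match says that the letters are present, not that a factor is bound. Capitals again mark the searched element, the composite site in the first 4 stretches and the second ER stress element in the last.
Asns (chr6:7693210-7693257, minus strand): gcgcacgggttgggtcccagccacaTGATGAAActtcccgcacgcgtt
Atf3 (chr1:191183411-191183468, minus strand): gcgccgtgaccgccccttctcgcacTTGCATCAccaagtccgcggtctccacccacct
Chac1 (chr2:119351024-119351081, plus strand): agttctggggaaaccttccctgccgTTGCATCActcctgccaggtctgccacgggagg
Herpud1 (chr8:94386292-94386349, plus strand): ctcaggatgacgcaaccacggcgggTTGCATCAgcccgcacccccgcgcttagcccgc
Herpud1 (chr8:94386352-94386412, plus strand): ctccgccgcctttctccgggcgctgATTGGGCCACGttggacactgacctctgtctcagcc

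The arrays themselves were alike in overall intensity, with medians of 8.86 to 9.38 and 42.8% to 44.1% of probe sets above 16. All 11 macrophage markers matched, among them Cd68, Csf1r and C1qa, were above the filter, with summed intensities of 214783 to 239710 in the mutant and 217817 to 229451 in the wild type. Of 10 stromal markers 6 were above the filter. The sum of all 10 was 583, 591 and 6167 on mutant arrays 1, 2 and 3 and 277, 286 and 4308 on the wild-type arrays. It was higher in the mutant in every pair and high in both arrays of assay 3. Fn1 made up most of the sum in assays 1 and 2, with 517 and 430 in the mutant and 212 and 202 in the wild type. Single markers were less uniform, such as Col1a1 with pair differences of -0.12, 0.12 and 0.40. Lum and Serping1 stayed below 16. Of 8 B and plasma cell markers, cells rich in ER chaperones, 6 stayed below 16 on every array, including Jchain and Mzb1, while Ighm reached 2035 and 1723 in assay 3 and spanned 8.21 to 633 elsewhere. Sdc1, the remaining marker, read 698, 296 and 591 in the mutant and 665, 747 and 1389 in the wild type. Its pair differences were 0.07, -1.29 and -1.21. The list's sum was 780 to 2662 in the mutant and 710 to 3146 in the wild type. The sum of 8 osteoclast markers was 1117 to 1878 in the mutant and 8525 to 26816 in the wild type. In such bulk samples, fewer cells of a type and less RNA per cell cannot be told apart. The part of these markers in the results below was not tested.

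No stress gene passed the comparison of mutant with wild type. The test was limma on log2(intensity + 16), with Benjamini-Hochberg adjustment over 22497 probe sets. It called 0 probe sets (0%), and the adjusted p of all 29 members rounded to 1.0. No osteoclast marker passed either, such as Acp5 at -3.54 ± 0.59 and Mmp9 at -4.88 ± 0.89 (SE). A gene that did not pass is therefore not shown to be unchanged. At an unadjusted p under 0.05, limma placed 0 of the 29 members, against 1.14% of the 10363 genes and 0.88% of the probe sets tested. With the replicate number as a block, limma again called 0 (0%) after adjustment, and 2 members (6.9%) had an unadjusted p under 0.05, Dnajc3 and Ppp1r15a, against 5.89% of genes and 5.29% of probe sets. The mean was higher in the mutant for 17 members (58.6%) and lower for 12 (41.4%), beside 53.2% and 46.8% of genes. The largest was -0.41 on the log2 scale, for Herpud1, and 0 of 29 members reached 0.5 in either direction, a size that 3.83% of genes reached.

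Within the same-numbered pairs, 5 members (17.2%) were higher in the mutant in every pair and 3 (10.3%) lower, beside 14.5% and 12% of all genes. The 5 were Dnajc3, Hyou1, Ssr1, Atf6 and Trib3, and the 3 were Pdia4, Sec61b and Ppp1r15a. These shares lie near those of all genes. Of the 17 members with several probe sets above the filter, 10 had probe sets of both signs. Leaving out 1 array turned the sign of the difference of group means for 19 of the 29 members. Here and below, the partner of a left-out array stays in. That difference is then no longer paired and takes in the gap between assays. Leaving out both arrays of assay 3, which keeps whole pairs, turned 6 members. Only Atf6 had no overlap between the groups, 1 of 29 members beside 1.36% of genes with the mutant higher, and 0 members beside 1.95% had it with the mutant lower.

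**Figure D1:**
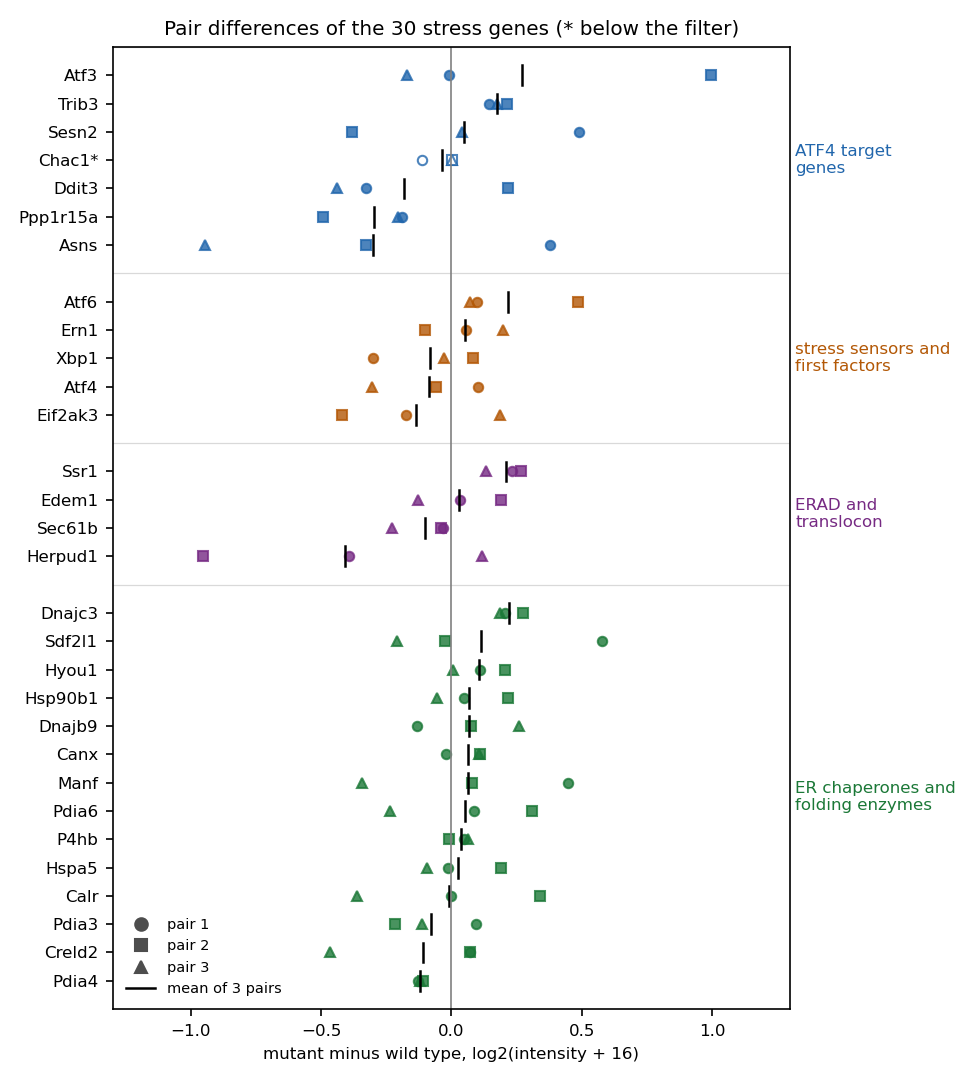
Difference of mutant minus wild type in each same-numbered pair, as log2(intensity + 16), for the 30 stress genes by role, with points for pairs 1, 2 and 3 and a black bar for their mean. All bars lie between -0.41 (Herpud1) and 0.27 (Atf3), while single pairs reach -0.95 and 1.0; the open points of Chac1, marked with an asterisk, lay below the filter.

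The ER chaperones differed little between the receptors. Means were higher in the mutant for 10 of the 14 and lower for 4, and the median difference was 0.06 beside 0.0088 over all genes. Pair by pair the median was 0.06, 0.09 and -0.10, a spread larger than the overall value. None reached 0.3 on the mean.

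Hspa5 encodes BiP, the main chaperone of the ER lumen and the protein that holds the sensors inactive. Its intensities on mutant arrays 1, 2 and 3 were 12102, 12997 and 14626, those on the wild-type arrays 12226, 11404 and 15612. The groups overlapped, and both arrays of assay 3 were the highest of their group. The mean difference of Hspa5 was 0.03 ± 0.16 (SE, limma, n = 3 each). Hsp90b1, which encodes the ER form of the HSP90 chaperone, read 7167, 6039.8 and 6443 against 6932, 5199 and 6705. Here both arrays of assay 2 were lowest, and the difference of Hsp90b1 was 0.07 ± 0.15. A second probe set of Hsp90b1 gave 0.08, -0.69 and 0.04, a mean of -0.19 in the opposite direction.

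Dnajc3, the co-chaperone p58IPK, was the chaperone gene with the largest difference. Its intensities were 455, 613 and 537 on the mutant arrays and 392, 503 and 470.4 on the wild-type arrays. The pair differences of Dnajc3 were 0.21, 0.28 and 0.19, close to each other, although the groups overlapped because assay 2 was bright in both. Their mean was 0.22 ± 0.16 (SE without the block) or ± 0.08 (SE with it), and limma with the block gave it an adjusted p of 0.859. Of its 5 probe sets, all above the filter, 4 had a higher and 1 a lower mean in the mutant. Hyou1, a large HSP70-like chaperone of the ER, read 149.9, 187 and 97.8 against 138, 160.5 and 97.2. Its pair differences were 0.11, 0.20 and 0.0073, so the third was close to 0.

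Among the protein disulfide isomerases, which form and rearrange disulfide bonds, Pdia4 was the 1 member lower in every pair. It read 63.0, 65.0 and 54.9 in the mutant and 70.4, 71.3 and 61.1 in the wild type, pair differences of -0.13, -0.11 and -0.12. The mean of Pdia4 was -0.12 ± 0.11 (SE without the block) and ± 0.07 (SE with it), and it did not pass by limma (adjusted p = 0.860 with the block). P4hb differed by 0.05, -0.01 and 0.06 in the 3 pairs, and Pdia3 by 0.10, -0.22 and -0.11. Pdia6 differed by 0.08, 0.31 and -0.24, a spread that covers both directions.

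The lectin chaperones that hold glycoproteins during folding were mixed. Canx, calnexin, stayed between 4885 and 5478 on all 6 arrays, and its difference of 0.07 ± 0.09 had the smallest error of the chaperones. Calr, calreticulin, read 10135, 10451 and 5289 in the mutant and 10148, 8260.4 and 6803 in the wild type. Its pair differences were -0.0019, 0.34 and -0.36, which average to -0.0085. The 2 other probe sets of Calr gave 0.04 and 0.08.

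The other chaperone-list genes differed in sign between pairs. Sdf2l1, part of a chaperone complex, differed by 0.58, -0.03 and -0.21 in pairs 1, 2 and 3. Manf, a secreted ER stress protein, differed by 0.45, 0.08 and -0.34, and Creld2 by 0.07, 0.07 and -0.47. These 3 were lower in the mutant in pair 3. Dnajb9, an IRE1 target that assists BiP, was higher there, with -0.13, 0.08 and 0.26.

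The genes of ER degradation and import, with 2 higher and 2 lower means and a median of -0.03, held the largest mean difference of the 29 members. Herpud1, which helps assemble the complex that moves misfolded proteins out of the ER, read 422, 655 and 1273 in the mutant and 559, 1282 and 1171 in the wild type. The mutant value was lower in pairs 1 and 2 (-0.39 and -0.95) and higher in pair 3 (0.12), and the groups overlapped. The mean difference of Herpud1 was -0.41 ± 0.51 (SE), and a second probe set gave -0.24, -0.81 and 0.10, the same order. Without mutant array 1 the difference of Herpud1 was -0.05, and without mutant array 3 it was -0.83. Both are unpaired, with the partner array kept, and so carry the gaps between assays. Edem1, which hands misfolded glycoproteins to degradation, differed by 0.03 ± 0.13.

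Ssr1, a subunit of the complex beside the import channel, read 1163, 1221 and 763 in the mutant and 989, 1011 and 696 in the wild type. Each mutant array was above its partner, by 0.23, 0.27 and 0.13, and the groups overlapped through the dimmer assay 3. The mean was 0.21 ± 0.25 (SE without the block) and ± 0.08 (SE with it), and limma with the block gave it an adjusted p of 0.859. Of its 4 probe sets, 3 had a higher mean, including a second one higher in every pair (0.12, 0.20 and 0.12), and 1 was lower in every pair, by -0.11, -0.40 and -0.19. Leaving out 1 array, the difference of Ssr1 ran from 0.039 to 0.42. Sec61b, a small subunit of the channel itself, differed by -0.03, -0.04 and -0.23.

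**Figure D2:**
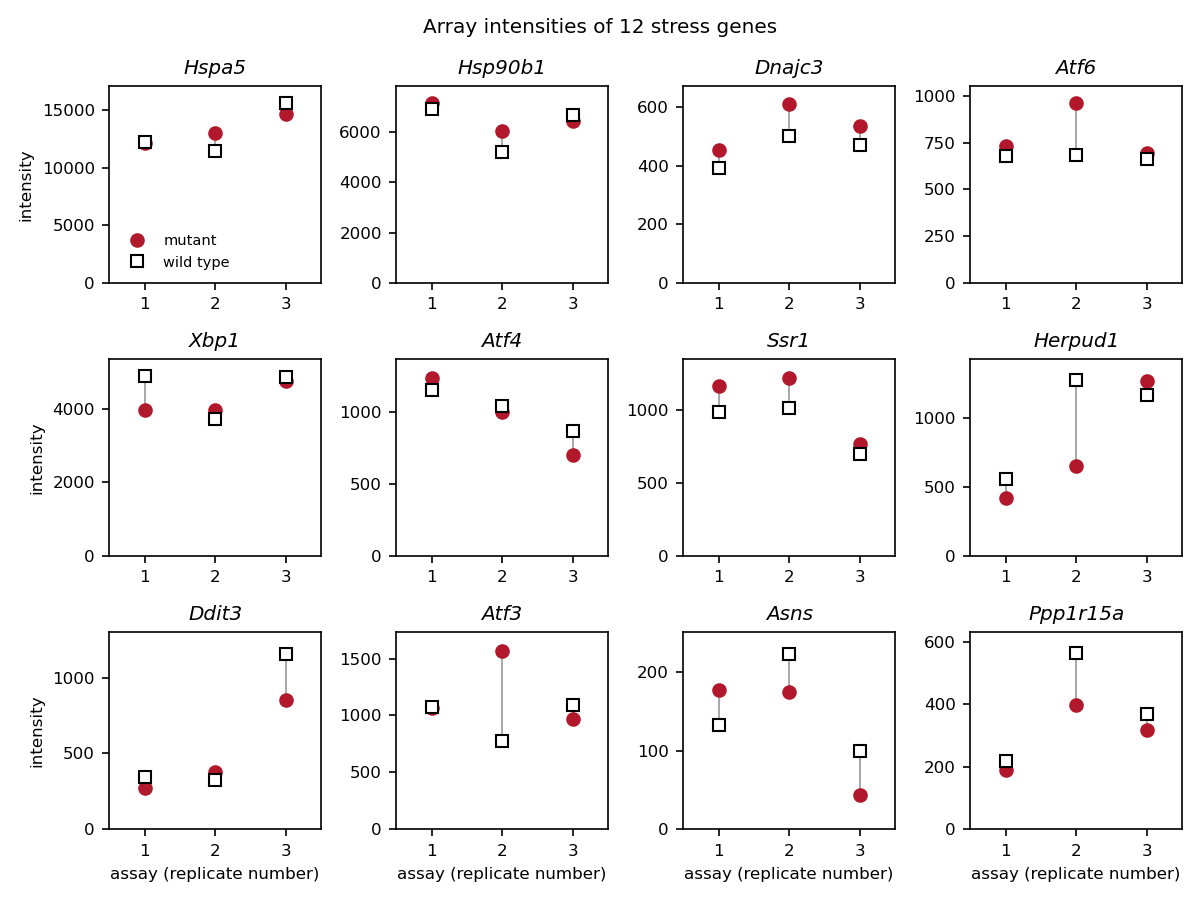
Intensity (linear scale, from 0) of 12 stress genes on each array by assay, with mutant as filled circles, wild type as open squares and a line joining each same-numbered pair. Atf6 lies at 696 or above on the mutant arrays and at 682 or below on the wild-type arrays, while Ddit3, Asns, Herpud1 and Ppp1r15a differ more between assays than within most pairs.

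Of the sensors and first factors, 2 had a higher and 3 a lower mean, with a median of -0.08, while the pair medians were 0.06, -0.06 and 0.07. Atf6 encodes the membrane-bound factor that is cut in the Golgi and then switches on chaperone genes. It read 729, 961 and 696 in the mutant and 681, 682 and 663 in the wild type, so every mutant value lay above every wild-type value. The gap between the nearest values was narrow, and mutant array 2 stood above the rest. The pair differences of Atf6 were 0.10, 0.48 and 0.07, with a mean of 0.22 ± 0.15 (SE), and 0.08 without mutant array 2. Both further probe sets of Atf6 had a higher mean too, by 0.07 and 0.05, with pair differences on both sides of 0.

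Xbp1, whose mRNA is spliced by IRE1 into the active factor, read 3970.4, 3959.8 and 4771 against 4899, 3735 and 4871. The difference of Xbp1 was -0.08 ± 0.16, led by pair 1 at -0.30. Spliced and unspliced forms were not told apart. Its 4 probe sets split, 2 in each direction, and 1 of them, at 32.2 to 126, was higher in every pair by 0.84, 0.38 and 0.38. Ern1, which encodes IRE1 alpha, differed by 0.05 ± 0.26, and Eif2ak3, which encodes PERK, by -0.14 ± 0.16 with pair differences of -0.18, -0.42 and 0.19.

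Atf4 itself read 1242, 1001 and 702 in the mutant and 1155, 1044 and 870.0 in the wild type. Both groups were lowest in assay 3, and the difference of Atf4 was -0.09 ± 0.24. ATF4 is controlled mainly by translation, so its transcript level does not measure the protein. A second probe set gave pair differences of 0.31, 0.37 and -0.51, with a mean of 0.06.

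The ATF4 targets, described apart from the chaperones, varied more. Of the 6 tested, 3 had a higher and 3 a lower mean, with a median of -0.07 and pair medians of 0.07, -0.06 and -0.19. The chaperones minus the ATF4 targets, as means over genes, differed between mutant and wild type by 0.02, 0.07 and 0.16 in pairs 1, 2 and 3, a mean of 0.08 ± 0.07 (SD, n = 3 pairs). This small shift was not tested. On group means with 1 array left out and its partner kept, it was -0.014 without mutant array 1 and 0.21 without wild-type array 1. Those 2 values are unpaired and carry the gaps between assays.

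Ppp1r15a encodes GADD34, the phosphatase subunit that ends the block on translation. It read 190.3, 397 and 318 in the mutant and 219, 564 and 369.7 in the wild type. Every mutant array was below its partner, by -0.19, -0.49 and -0.21, while the groups overlapped because assay 1 was dim and assay 2 bright. The mean of Ppp1r15a was -0.30 ± 0.42 (SE without the block) and ± 0.10 (SE with it), and it did not pass by limma (adjusted p = 0.859 with the block).

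Ddit3 encodes CHOP, a factor linked to cell death under ER stress. It read 269, 377 and 850.5 in the mutant and 342, 322 and 1158 in the wild type. Both arrays of assay 3 were the highest of their group, the groups overlapped, and the difference of Ddit3 was -0.18 ± 0.66 with pairs at -0.33, 0.22 and -0.44. Unpaired, with the partner array kept, it was -0.64 without mutant array 3 and 0.40 without wild-type array 3. Atf3, a stress-induced repressor that inflammatory signals also induce, read 1068, 1564 and 966 against 1075, 776 and 1089. Pairs 1 and 3 were near 0 (-0.01 and -0.17), and pair 2 gave 1.0. This was the largest single pair difference among the brightest probe sets of the members. Its mean was 0.27 ± 0.24, and 0.07 without mutant array 2.

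Asns encodes asparagine synthetase, a classic target of amino acid shortage. It read 177, 175 and 43.7 in the mutant and 133, 223 and 99.1 in the wild type. The mutant was above its partner in pair 1 (0.38) and below it in pairs 2 and 3 (-0.33 and -0.95), and mutant array 3 was the lowest of all. The mean was -0.30 ± 0.56, a second probe set gave 0.58, -0.63 and -1.04, and without mutant array 3 the sign turned to 0.26.

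The remaining targets gave low intensities. Trib3, a pseudokinase that restrains ATF4 and CHOP, read 23.6, 24.9 and 19.8 in the mutant and 19.8, 19.3 and 15.8 in the wild type, and the lowest mutant value did not clear the highest wild-type value. Its pair differences of 0.14, 0.21 and 0.17 lie close together, with a mean of 0.18 ± 0.10 (SE), but at such intensities they depend on the value of 16 added before the logarithm. Sesn2, which curbs the growth kinase mTORC1, read 71.0, 46.4 and 55.9 against 45.9, 65.3 and 53.8, with pairs at 0.49, -0.38 and 0.04 and a mean of 0.05 ± 0.17. A second probe set of Sesn2, at 7.78 to 30.8, was lower in every pair (-0.0060, -0.81 and -0.32), and averaging both turned the difference to -0.17. Chac1, which breaks down glutathione, read 5.79 to 7.94 on all 6 arrays and lay below the filter, so no difference is given.

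The promoter elements shown above did not sort the members by direction. The 7 members with the ER stress element ranged from -0.11 (Creld2) to 0.22 (Dnajc3), 5 with a higher and 2 with a lower mean. The 4 tested members with the composite site ranged from -0.41 (Herpud1) to 0.27 (Atf3), 2 in each direction.

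The assays differed far more than the receptors did. Over the 29 members, replicate number took up 82.2% of the sum of squares and group 5.53%, beside 81.1% and 8.76% over all genes. By sums of squares, replicate number exceeded group for 24 of the 29 members, beside 9553 of the 10363 genes. Replicate number splits the arrays into 3 and group into 2. Replicate number would thus tend to take the larger share even if neither mattered. The range of the 3 assay means exceeded the size of the mean group difference for 26 of the 29. A range over 3 means and a difference of 2 means are unlike measures, and this count was not made over all genes. The assay range was 1.66 for Ddit3, 1.37 for Asns, 1.3 for Herpud1, 1.26 for Pdia3 and 1.15 for Ppp1r15a. The assays did not rank the genes alike. Pdia3 read 2803 and 3263 in assay 2 against 6508 to 7514 elsewhere, Dnajb9 was dimmest in assay 1 (802 and 881) and brightest in assay 3 (1798 and 1499), and Calr, Sdf2l1, Hyou1 and Asns were dimmest in assay 3. The stromal markers were high in that assay in both groups, and their part in these levels was not tested. P4hb is an example of a close pairing, with 99.3% of its sum of squares between assays.

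**Figure D3:**
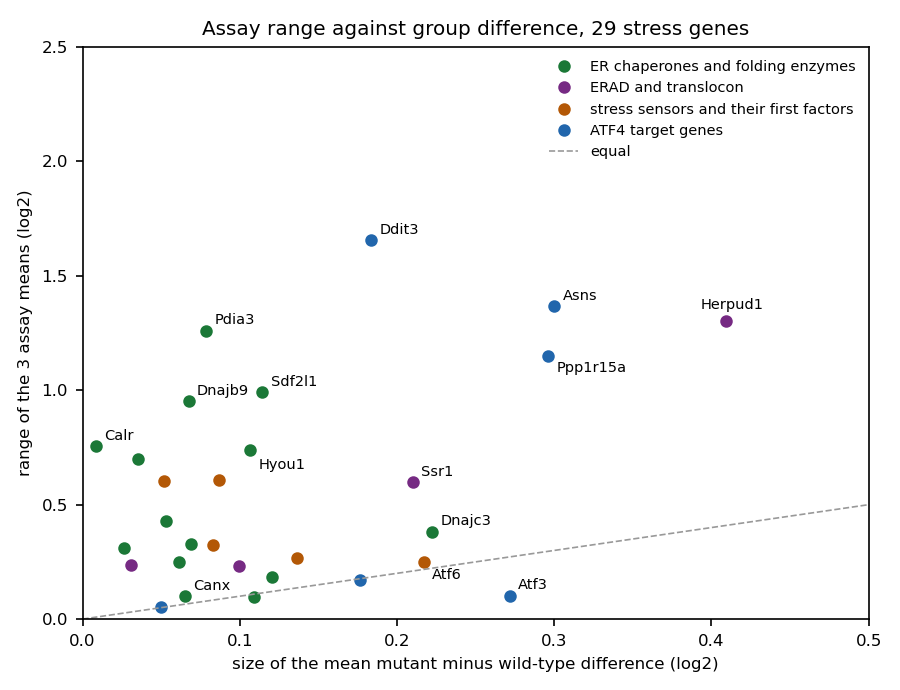
Range of the 3 assay means (vertical) against the size of the mean mutant minus wild-type difference (horizontal), both as log2(intensity + 16), for the 29 stress genes tested, coloured by role. At points above the dashed line of equal values, 26 of 29, the range of 3 assay means exceeded the difference of 2 group means. Ddit3 is highest at 1.66 and Atf3 lies furthest below the line.

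The other genes of the ER pathways stood as close to 0 as the members. In addition, 8 further lists with 132 names were followed, of which 122 were found on the array. By limma 0 of their members passed, with or without the block. Other ER folding genes had a median of 0.0029 over 21 tested. In every pair 5 were higher and 2 lower, beside 14.5% and 12% of all genes. Ero1b, an oxidase that recharges the disulfide isomerases, read 575, 562 and 544 against 498, 507 and 487, higher in the mutant on every array without overlap, by 0.17 ± 0.08. Hspa13 differed by 0.22 ± 0.13, Dnajc10 by -0.25 ± 0.16 and Erp44, which retains proteins in the early secretory pathway, by -0.18 ± 0.13.

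Other genes of ER degradation had a median of 0.02 over 16. In every pair 1 was higher and 2 lower, beside 14.5% and 12% of all genes. Vcp, the ATPase that pulls proteins out of the ER membrane, differed by -0.19 ± 0.11, Edem3 by 0.13 ± 0.09, Stt3a by 0.14 ± 0.13 and Ubxn4 by -0.13 ± 0.15. The ER import genes had a median of -0.0018 over 20, with 1 higher and 2 lower in every pair. Their smallest p-values belonged to Ssr2 (-0.31 ± 0.17), the signal peptidase subunits Sec11c (-0.26 ± 0.15) and Sec11a (-0.13 ± 0.12), and Srp68 (-0.12 ± 0.11).

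The eIF2 kinases, phosphatase and exchange factor subunits had a median of -0.07 over 10. In every pair 3 were lower and 0 higher, beside 12% and 14.5% of all genes. Nck1, an adaptor that also binds eIF2, differed by -0.35 ± 0.34, Eif2b3 by 0.15 ± 0.18, Eif2ak1, the haem-regulated kinase, by -0.12 ± 0.17, and Eif2b1 by -0.08 ± 0.13. Cytosolic heat shock genes, which belong to another stress response, had a median of 0.02 over 10 and pair medians of 0.13, 0.13 and -0.30. In pair 3, 1 of the 10 was higher in the mutant. The list also holds the mitochondrial chaperones, of which Hspd1 and Hspe1 differed by -0.30 ± 0.20 and -0.24 ± 0.17, while Dnajb1 differed by -0.10 ± 0.12 and Hspa4 by 0.13 ± 0.19.

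Of the 3 further lists of ATF4 targets, 2 had pair medians of both signs, and the regulators had medians below 0 in all pairs. Genes of amino acid synthesis and transport had pair medians of 0.54, 0.10 and -0.18 over 15, and the tRNA synthetase list, which includes the tRNA exporter Xpot, 0.29, -0.12 and -0.18 over 13. Over all genes the pair medians were -0.0013, 0.015 and 0.00094. Of the 13 genes of the tRNA synthetase list, 12 were higher in the mutant in pair 1, 5 in pair 2 and 2 in pair 3. Mthfd2, the mitochondrial folate enzyme, read 466, 132 and 57.9 in the mutant and 279.6, 261 and 195 in the wild type, pair differences of 0.70, -0.91 and -1.51. The mutant lay above its partner in assay 1 and below it in the other assays, and its mean was -0.57 ± 0.70. Psph, of serine synthesis, differed by 0.29 ± 0.32 and Slc7a5, a large neutral amino acid transporter, by 0.21 ± 0.26. Lars differed by 0.22 ± 0.10, Xpot by 0.37 ± 0.21, Iars by -0.21 ± 0.17 and Cars by -0.08 ± 0.21.

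Genes that kept 1 direction in every pair lay on both sides. In the amino acid list, 2 of 15 were lower in the mutant in every pair and 1 higher. In the tRNA synthetase list, 0 of 13 were lower and 2 higher, beside 12% and 14.5% of all genes. These 2 were Lars, without overlap between the groups, and Xpot. Among the ATF4 targets lower in every pair were Slc7a11 and Eif4ebp1. Slc7a11, the cystine transporter, which NRF2 also drives, read 33.7, 7.88 and 23.5 in the mutant against 141, 29.9 and 161 in the wild type, -1.59 ± 0.61. Eif4ebp1, a brake on translation initiation, read 969, 1115 and 1041 against 1225, 1407 and 1315. Its pair differences were -0.33 in each of the 3 pairs, the groups did not overlap, and the mean was -0.33 ± 0.11, which did not pass by limma (adjusted p = 1.0, and 0.859 with the block). The regulator list had a median of -0.33 over 9 and pair medians of -0.31, -0.59 and -0.06. In every pair 5 were lower and 0 higher, beside 12% and 14.5% of all genes. Among the 5, Ddit4 was near the floor in pair 1 (5.81 in the mutant against 5.97). In pairs 1, 2 and 3, 0, 1 and 4 of the 9 were higher in the mutant. The list median was -0.53 without mutant array 3, -0.50 without wild-type array 1 and -0.17 without wild-type array 2. It includes Jdp2, an AP-1 family factor that is also an osteoclast gene, at -2.08 ± 0.37. Nupr1, a stress-induced nuclear protein, differed by -0.60 ± 0.70, and Vldlr, a lipoprotein receptor, by -1.71 ± 1.39, mostly through pair 2 at -4.42.

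**Figure D4:**
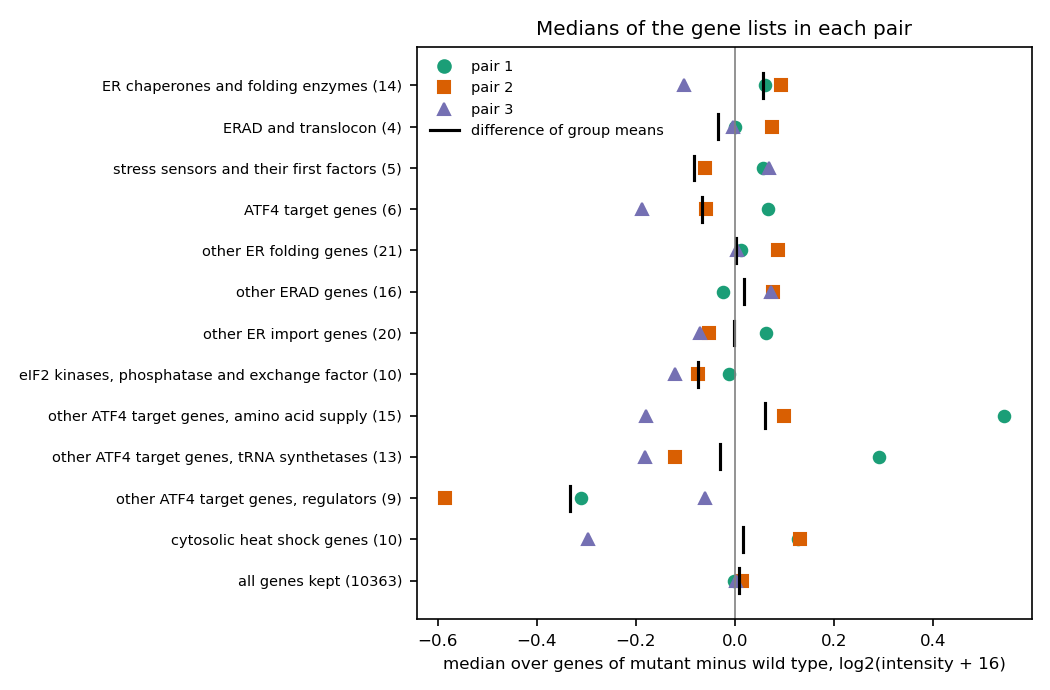
Median over the genes of each list of mutant minus wild type, as log2(intensity + 16), in pairs 1, 2 and 3 (points) and on the group means (black bars), with the number of genes tested in brackets. The amino acid supply and tRNA synthetase lists lie at 0.54 and 0.29 in pair 1 and at -0.18 each in pair 3, while the ER lists lie between -0.10 and 0.09 in every pair.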

How the data were processed

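The authors deposited a linear intensity for each probe set on each array. GCOS and GCRMA are the tools listed, per the submitters' processing notes, with neither version nor order. GCRMA corrects background and makes arrays alike in distribution, which presses dim probe sets towards a floor. From 45101 probe sets, 64 controls were left out. Intensities were taken as log2(value + 16), so differences of dim genes are understated, and no further normalization was applied. Probe sets above the median (percentile 50) of their own array on at least 3 of 6 arrays were tested (22497). Differences are mutant minus wild type, tested two-sided with limma 3.58.1 in R 4.3.3 without a block, and a gene passed where its Benjamini-Hochberg adjusted p was under 0.05. Standard errors (SE) are limma's moderated ones from that fit unless stated. For counts over genes, each gene was its brightest probe set with 1 symbol, and 10363 genes were tested.

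Deviations from the group means correlated at 0.797, 0.671 and 0.845 between same-numbered arrays and at -0.618 to -0.0138 between others, and the labels describe independent assays, so same-numbered arrays were treated as pairs. The members and lists were chosen with earlier results of these data known. Named were all 30 members and up to 4 genes of each further list by smallest p; any other gene was named with its values in view. Symbols of the 30 members were the same in the RefSeq gene table. In simulated data of 22497 probe sets, limma without the block recovered 6 of 50 at a log2 change of 1 and 34 of 50 at 2, and with the block 40 and 50; unchanged probe sets called numbered 0 without and 11 with the block. Sizes below 1, such as the -0.41 of Herpud1, were not included, so their recovery was not tested and they could be missed. On the deposited arrays, limma with the block called 0 of 22497 probe sets, with a smallest adjusted p of 0.079. Acp5 was not called there, with pair differences of -3.10, -4.00 and -3.51. How far the recovery given above holds for the deposited arrays was not tested. The number of arrays limits the precision. Protein sequences were not used here. Alternatives tried were other pseudocounts (1 and 64), filters, probe set choice, normalizations, the block and leaving out arrays.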

Additional observations from a re-analysis of the deposited data

How the results depend on the processing

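No member passed limma under any of the 15 alternatives, and the fit with a replicate block, like the one without, called 0 probe sets and changed no call. Of the 8 alternatives that keep all arrays, averaging all probe sets of a gene turned 5 of 29 members: Hsp90b1 to -0.060, Xbp1 to 0.10, Ern1 to -0.023, Calr to 0.037 and Sesn2 to -0.17. Quantile normalization turned Calr to 0.0029. Trib3 was 0.30 with a pseudocount of 1 and 0.076 with 64. Averaging took Ssr1 from 0.21 to 0.064 and Pdia4 from -0.12 to -0.062. The ATF4 target median, -0.07, was -0.24 when only probe sets above percentile 70 were kept and -0.20 under averaging. The chaperones minus ATF4 targets were 0.18 under the stricter filter, and the sensor median was -0.011 under averaging. Leaving out 1 array in turn, the ATF4 target median ran from -0.20 to 0.15, the degradation and import median from -0.077 to 0.017, the sensor median from -0.088 to 0.0086, the chaperone median from -0.046 to 0.13 and the chaperones minus ATF4 targets from -0.014 to 0.21. Over the 2 pairs then left, 5 to 8 members were lower and 7 to 10 higher in both.

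The sign of 19 of the 29 members turned when 1 array was left out. Its partner stayed in, so these differences are unpaired and also carry the gaps between assays. Hyou1, Sec61b and Ppp1r15a turned although each kept 1 direction in every pair. Among the chaperones, Hspa5 ran from -0.066 to 0.16, Hsp90b1 from -0.061 to 0.15, Hyou1 from -0.082 to 0.34, Dnajb9 from -0.19 to 0.39, Sdf2l1 from -0.14 to 0.51 and Manf from -0.11 to 0.22. Calr ran from -0.18 to 0.31, Pdia3 from -0.45 to 0.36, Pdia6 from -0.093 to 0.19 and P4hb from -0.16 to 0.22. Of the degradation and import genes, Edem1 ran from -0.024 to 0.14 and Sec61b from -0.16 to 0.0028. Of the sensors and first factors, Ern1 ran from -0.15 to 0.25, Eif2ak3 from -0.28 to 0.0086 and Atf4 from -0.27 to 0.13. Of the ATF4 targets, Ddit3 ran from -0.64 to 0.40, Asns from -0.59 to 0.26, Sesn2 from -0.076 to 0.16 and Ppp1r15a from -0.63 to 0.019. Hyou1 turned also without wild-type array 3, at -0.074. Without both arrays of assay 3, where stromal markers were high, the degradation and import median was 0.037. In both pairs left, 5 members were lower and 10 higher, again without a count over all genes. Without these arrays Atf4 turned to 0.022, Ern1 to -0.022, Dnajb9 to -0.029, Calr to 0.17, Asns to 0.024 and Creld2 to 0.070. The causes were not tested. Chac1 had no value in these comparisons, and Pdia4, Sesn2 and Trib3 had none under the stricter filter.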
